A study of Mus musculus with 28 samples.

Results

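The potassium channel genes of the mouse were followed through the forced expression of Atoh1, Gfi1 and Pou4f3, the transcription factors that act in the making of inner ear hair cells. A gene was taken as a member when its symbol starts with Kcn, antisense transcripts excepted. This gave 92 of the 19421 genes in the table, and 85 of them reached 10 normalized counts in at least 2 of the 28 libraries and were tested among 16837 genes in all. The 7 members below that level were Kcna10, Kcne4, Kcng4, Kcnj16, Kcnk15, Kcns1 and Kcns2, of which Kcng4 had the highest single value, 12.7 normalized counts. The libraries come from 7 mouse embryonic stem cell (ESC) lines made from the A2loxCre parent, each with a doxycycline (Dox)-inducible cassette that ends in a Venus fluorescent reporter. The cassette holds Atoh1 in iAtoh1, Gfi1 in iGfi1, Pou4f3 in iPou4f3, Gfi1 and Atoh1 in iG+A, Gfi1 and Pou4f3 in iG+P, Pou4f3 and Atoh1 in iP+A, and all 3 factors in iGPA. In each line, embryoid bodies (EBs, floating aggregates in which ESCs differentiate) were collected at day 6, either untreated and unsorted (No Dox) or sorted for Venus+ cells after 48 h in 2 µg/ml Dox from day 4 (Dox). Each of these 14 groups has 2 replicates, which are different clones of the line. The p-values below rest on the spread between clones pooled over the 14 groups, and not on that of a single line. The main fit did not pair the No Dox and Dox libraries of a line. Treatment and sorting changed together in every comparison and cannot be told apart.

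Potassium channels let potassium leave the cell, which holds the membrane near rest and ends an action potential. Voltage-gated subunits open on depolarization and assemble as tetramers within a family, and silent subunits form no channel of their own but change the voltage-gated channels they join. Inward rectifiers and two-pore channels set the resting potential, and a further group opens with intracellular calcium, sodium or pH. Auxiliary subunits bind the pore-forming proteins and alter their gating or their number at the surface. In the cochlea, potassium carries the transduction current into hair cells, and channels in the basolateral membrane of these cells let it out again, while neurons use the voltage-gated families to shape their firing.

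More potassium channel genes rose than fell with Dox in each of the 7 lines. A gene was called at an adjusted p under 0.05 and a difference of at least 1.5 on the scale of log2(normalized count + 1), from limma fitted to all libraries with Benjamini-Hochberg adjustment over the 16837 genes. In iGPA, 31 of the 85 members rose (36.5%) and 6 fell (7.06%), where 8.65% of all genes tested rose and 5.31% fell. In iP+A, 22 rose (25.9%, against 4.7% of all genes) and 2 fell (2.35%, against 2.58%). In iG+A, 20 rose (23.5%, against 7.35%) and 1 fell (1.18%, against 4.95%), and in iG+P 17 rose (20%, against 5.16%) and 4 fell (4.71%, against 5.36%). The single factors gave fewer calls. In iAtoh1, 12 members rose (14.1%, against 2.89%) and 1 fell (1.18%, against 2.52%). In iGfi1, 5 rose (5.88%, against 2.15%) and 1 fell (1.18%, against 2.67%), and in iPou4f3 3 rose (3.53%, against 1.47%) and none fell, where 0.606% of all genes fell and 26 members (30.6%, against 18.2% of all genes) had an unadjusted p under 0.05 in either direction. The share of members that rose was thus above that of all genes in each line, while the share that fell was below it except in iGPA.

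The median log2 difference of the 85 members was 0.98 in iGPA, 0.54 in iG+A, 0.35 in iG+P, 0.25 in iGfi1, 0.18 in iP+A, 0.15 in iAtoh1 and -0.02 in iPou4f3, where the median of all genes tested lay between -0.03 and 0.02. The rises of iP+A were therefore fewer in number than those of iGPA and sat on a median closer to that of all genes. The calls of most lines held up in number when 1 library was left out, with 26 to 31 rises in iGPA and 15 to 22 in iP+A. The rises of iGfi1 numbered 2 without iGfi1 Dox replicate 1, and those of iPou4f3 numbered 6 without either iG+A No Dox library. The falls were few and less stable. In iGPA they numbered 3 without No Dox replicate 1 and 2 without Dox replicate 1, in iG+P 2 without No Dox replicate 2, and in iGfi1 2 without No Dox replicate 1 and 4 without Dox replicate 2. In iPou4f3 there was 1 fall without No Dox replicate 1 or Dox replicate 1. In iAtoh1 there were 3 falls without No Dox replicate 2 or Dox replicate 2, and 2 without No Dox replicate 1, either iGfi1 Dox, either iPou4f3 No Dox or either iGPA Dox library. In iG+A there was no fall without No Dox replicate 1, 2 falls without any 1 of its other libraries or either iGPA Dox library, and 3 without either iAtoh1 No Dox library. With the replicate number of each line, taken as the clone, as a block, falls numbered 2 in iAtoh1, 1 in iPou4f3 and 3 in iG+A. After quantile normalization of the libraries, rises in iG+P numbered 11 and there was 1 fall in iPou4f3, and with 5 added before the logarithm in place of 1, falls in iGPA numbered 2.

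**Figure D1:**
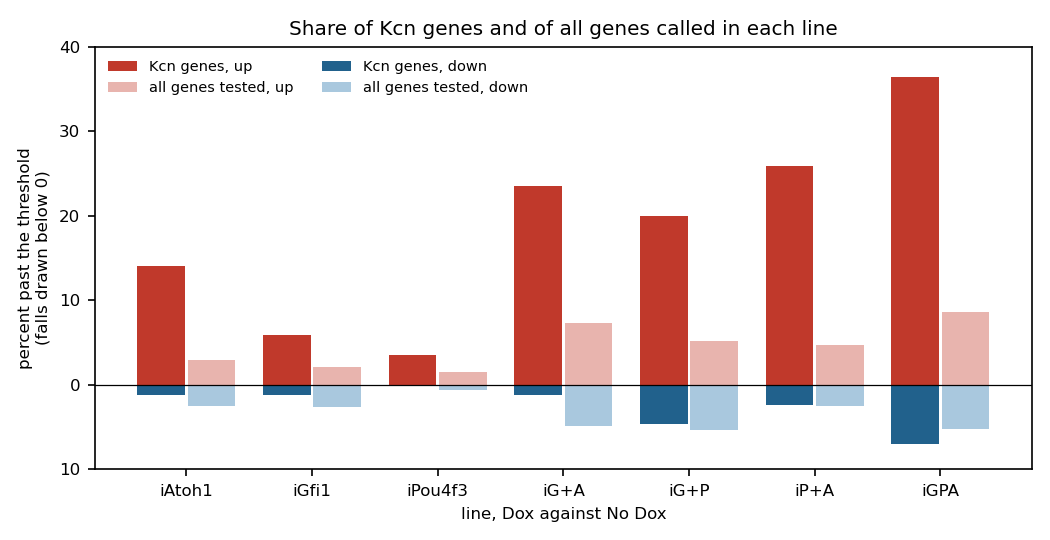
Percent of the 85 potassium channel genes and of all 16837 genes tested that were called in each line, Dox against No Dox; rises are drawn above 0 and falls below it. The dark bar of rises is longer than the pale bar beside it in every line, from 3.53% in iPou4f3 to 36.5% in iGPA.

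The estimated depth ran from 30.3 to 48.0 M reads per library, and after the scaling by the authors normalized counts summed to 36.8 to 40.4 M. The factors of each cassette rose in every line, for instance Atoh1 in iAtoh1 from 76.1 and 39.2 normalized counts without Dox to 18996 and 21242 with Dox. Factors outside the cassette were called as well, at far lower levels. Atoh1 rose in iGfi1 (to 27.1 and 31.9) and iG+P (to 32.5 and 24.8), Gfi1 in iPou4f3 (to 113 and 106) and iP+A (to 85.9 and 107), and Pou4f3 in iAtoh1 (to 101 and 62.6) and iG+A (to 42.4 and 50.0). A line is said to be with a factor where its cassette holds it. Markers of other cell types moved with Dox as well. Of 8 neuron markers, 8 rose in iP+A, 6 in iGPA, 3 in iAtoh1 and iG+A, 2 in iPou4f3 and iG+P and 0 in iGfi1, and their summed normalized counts were 595 to 960.0 without and 16799 to 22633 with Dox in iP+A. Of 8 hair cell markers, none rose in iAtoh1 or iGfi1, 1 rose in iPou4f3, 2 in iP+A, 3 in iG+P, 4 in iG+A and 5 in iGPA. Their summed level was 14675 to 41083 without and 38087 to 42495 with Dox in iGPA, and Otof and Lhx3 were among those that rose there. The neuron marker Syt4 and the hair cell marker Lhx3 were listed at 0 in some libraries. Of 8 smooth muscle and fibroblast markers, 7 fell in iGPA (summed level 85275 to 108492 without and 7665 to 8990.4 with Dox), 5 in iG+A, 4 in iG+P, 3 in iAtoh1 and iGfi1, 2 in iP+A and 0 in iPou4f3. Of 7 blood markers, 6 fell in iAtoh1, 5 in iP+A, 4 in iG+A and iGPA, 1 in iG+P and none in iPou4f3 or iGfi1, where 1 rose. Of 6 markers of pluripotent cells, 4 fell in iP+A, 3 in iG+A and iGPA, 1 in iG+P and none in the lines with 1 factor. Of 6 endoderm markers 1 to 3 fell in every line, of 6 cardiac muscle markers 2 fell in iGfi1 and 3 in iG+P, and of 5 endothelial markers no more than 1 fell in any line. Of 6 markers of glia and progenitors, 2 rose in iAtoh1, iGfi1, iG+P and iGPA and 1 in iG+A and iP+A, and 1 fell in iGfi1, iG+A and iP+A. The part of these shifts in the potassium channel results was not tested, and in bulk samples fewer cells of a type and less RNA per cell cannot be told apart.

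Of the 85 members, 54 were called in at least 1 line (63.5%, against 25% of all genes tested) and 31 in none. Rises were found for 46 members (54.1%, against 14.5%) and falls for 11 (12.9%, against 11.8%), with Kcnh7, Kcnn3 and Kcnn4 in both counts. In all there were 125 calls, 110 rises and 15 falls. Of the 125, 81 were kept whichever library was left out and 44 were lost without at least 1 library, given below for the members reported. The value in parentheses after such a library is the log2 difference without it, and where this is still past 1.5 the adjusted p was not. Each role held calls, to be read against the same shares of all genes. Of the 29 voltage-gated pore subunits, 21 were called (18 with a rise, 4 with a fall), and of the 7 silent subunits 5 were called (4 and 1). Of the 13 inward rectifiers 8 were called, all with a rise, and of the 13 two-pore channels 7 were called (6 and 1). Of the 8 calcium-, sodium- or pH-activated channels 3 were called (3 and 2), and of the 15 auxiliary subunits 10 (7 and 3).

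**Figure D2:**
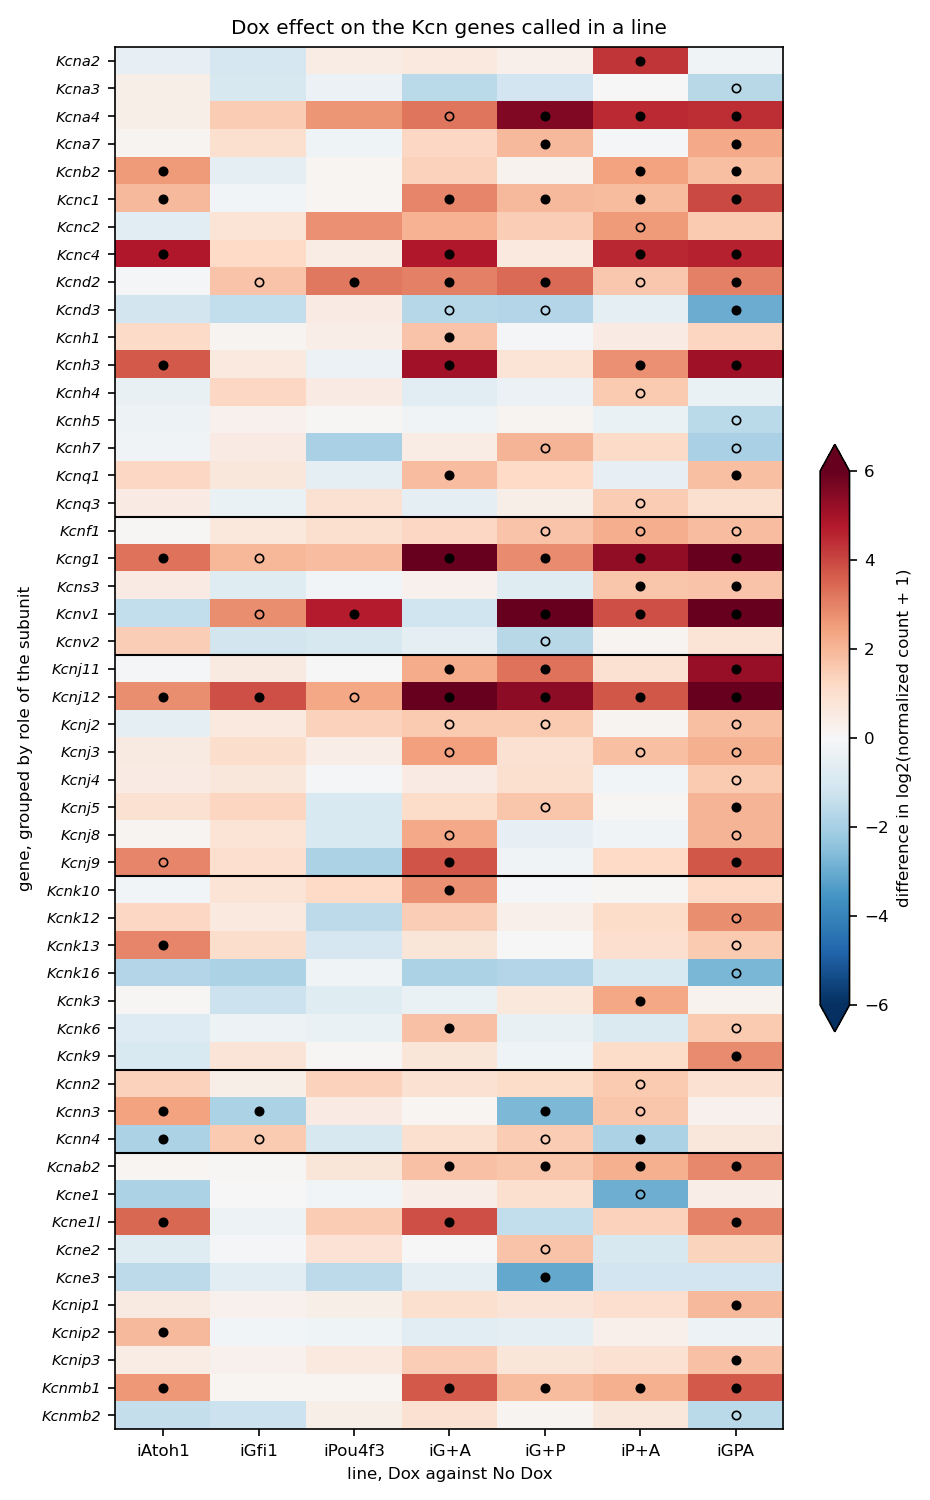
Difference in log2(normalized count + 1), Dox minus No Dox, for 50 of the 54 members called in at least 1 line (rows) in the 7 lines (columns); horizontal lines separate, from the top, voltage-gated pore, silent, inward rectifier, two-pore, ion-activated and auxiliary subunits. Filled dots mark calls kept whichever library was left out and open dots calls lost without at least 1 library. The row of Kcnj12 is dotted in all 7 lines, and the colour scale ends at 6, which Kcnj12, Kcng1 and Kcnv1 pass. Of the dotted values, those of Kcnv1 in iP+A and iGPA and of Kcnk16 in iGPA rest on a group listed at 0, as do undotted values of Kcna2, Kcnj8, Kcnk16 and Kcnv1.

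Kcnj12 (chr11:60836066-60884633, plus strand, mm9) encodes a strong inward rectifier that holds cells near the potassium equilibrium potential, and it was the only member that rose in all 7 lines. Its untreated level was 6.36 to 33 normalized counts (median 21.5) over the 14 No Dox libraries, and its level with Dox 55.2 to 1334 (median 369.8). In iGPA it rose from 7.37 and 8.29 normalized counts without Dox to 1334 and 1169.9 with Dox (log2 difference 7.15 ± 0.56 (SE), adjusted p = 1.41e-08). It reached a like level with Dox in iG+A, at 1212 and 1201 normalized counts (6.12), and in iG+P, at 1319 and 1081 (5.38). These 3 lines combine Gfi1 with another factor, and their libraries overlapped one another and lay above those of every other line. Below them came iP+A with 423 and 317 (3.71) and iGfi1 with 221 and 277 (3.88), then iAtoh1 with 90.0 and 179.9 (2.78) and iPou4f3 with 55.2 and 101 (2.34). The Dox libraries of iAtoh1 and iPou4f3 overlapped each other. The call in iPou4f3 (adjusted p = 0.0204) was lost without iPou4f3 No Dox replicate 1 (1.31) or Dox replicate 2 (1.91).

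Kcnd2 and Kcng1 rose in 6 lines each, Kcnc1, Kcnmb1 and Kcnv1 in 5, and Kcna4, Kcnab2, Kcnc4 and Kcnh3 in 4. The 250 bases before the start of transcription are shown for 4 genes of this report that rose in several lines, as listed by RefSeq on GRCm38.p6, which had an entry for 61 of the members. Both strands were searched for CAGCTG and CAGATG, which are forms of the E-box bound by proteins of the class of Atoh1, for AATCACTG, a form of the Gfi1 site, and for ATTAAT, a core of POU factor sites, and matches are in capitals. Kcnj12 (chr11:61065554-61065803, plus strand) and Kcnc4 (chr3:107458899-107459148, minus strand) held none of the 4 in this window. The window of Kcnj12 lies further from its mm9 start than those of other members on chr11 do from theirs. It may therefore be at a start within the gene. Kcne1l (chrX:142306199-142306448, minus strand) held CAGCTG at -117 and Kcna4 (chr2:107290339-107290588, plus strand) held CAGATG, read on the opposite strand, at -195, counted from the start of transcription.
Kcnj12: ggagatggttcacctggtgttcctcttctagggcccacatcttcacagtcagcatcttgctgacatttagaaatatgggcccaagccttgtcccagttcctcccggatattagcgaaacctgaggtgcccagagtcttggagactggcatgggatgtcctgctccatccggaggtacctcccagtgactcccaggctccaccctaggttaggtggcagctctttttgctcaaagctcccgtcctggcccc
Kcnc4: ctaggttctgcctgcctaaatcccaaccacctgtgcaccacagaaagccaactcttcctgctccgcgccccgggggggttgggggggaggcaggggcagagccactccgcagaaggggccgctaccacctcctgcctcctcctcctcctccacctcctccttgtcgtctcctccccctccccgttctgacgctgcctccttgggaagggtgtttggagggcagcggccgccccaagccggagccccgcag
Kcne1l: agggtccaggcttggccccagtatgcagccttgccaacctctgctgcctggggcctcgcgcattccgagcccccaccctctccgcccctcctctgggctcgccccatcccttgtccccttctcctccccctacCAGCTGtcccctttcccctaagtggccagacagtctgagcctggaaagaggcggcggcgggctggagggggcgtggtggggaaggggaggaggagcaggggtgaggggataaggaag
Kcna4: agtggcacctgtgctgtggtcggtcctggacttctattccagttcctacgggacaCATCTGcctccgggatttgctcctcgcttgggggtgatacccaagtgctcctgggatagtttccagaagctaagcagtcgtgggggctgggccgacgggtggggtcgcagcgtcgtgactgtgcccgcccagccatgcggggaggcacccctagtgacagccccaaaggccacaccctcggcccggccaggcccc
Among the 61 member windows, 11 held CAGCTG (18.0%, against 12.7% of 27025 windows of the same length), 9 held CAGATG (14.8%, against 14.5%), 1 held AATCACTG (1.64%, against 0.962%) and 2 held ATTAAT (3.28%, against 4.53%). Of the 13126 windows of tested genes, 12.5% held CAGCTG, 10.8% CAGATG, 0.747% AATCACTG and 2.28% ATTAAT, so that the members' share of ATTAAT lay below that of all windows and above that of tested genes. A match is a run of letters and not a site, and CAGCTG and ATTAAT read the same on both strands.

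The Kcnc family, whose channels open only at strong depolarization and close fast so that neurons can fire at high rates, had calls in most lines. Kcnc4 (chr3:107241221-107261816, minus strand, mm9), which inactivates rapidly, rose in the 4 lines with Atoh1 and in no other. It went from 46.1 and 23.8 normalized counts without Dox to 739 and 1215 with Dox in iAtoh1 (log2 difference 4.80 ± 0.52 (SE), adjusted p = 3.37e-06), and from 18.4 and 9.55 normalized counts without Dox to 509.7 and 244 with Dox in iGPA (log2 difference 4.63 ± 0.52 (SE), adjusted p = 9.2e-07). In iP+A it was 24.7 and 24.7 without Dox and 665 and 511 with Dox (4.51), and in iG+A 8.10 and 8.16 without Dox and 494 and 132 with Dox (4.81), where the clones differed most. In the 3 lines without Atoh1 the Dox values were 45.6 and 43.4 in iGfi1, 30.1 and 19.8 in iPou4f3 and 133 and 124 in iG+P, with log2 differences of 1.17, 0.43 and 0.59 that were not called. Every Dox library of these 3 lines lay below the Dox libraries of iAtoh1, iP+A and iGPA, and iG+P Dox overlapped iG+A Dox. Kcnc1 (chr7:53651867-53693745, plus strand, mm9), found in auditory and fast-spiking neurons, had an untreated level of 19.1 to 41.6 normalized counts (median 28.4). It rose to 388 and 363 in iGPA (log2 difference 3.98 ± 0.35 (SE), adjusted p = 6.18e-08) and to 253 and 173 in iG+A (2.95). The rises in iAtoh1 (1.96), iG+P (1.92) and iP+A (1.89) were smaller, and the highest Dox library of iGfi1 and iPou4f3 was iPou4f3 Dox replicate 2, at 45.3. Kcnc2, of cortical interneurons, was called in iP+A (8.89 and 11.9 without Dox and 96.7 and 44.4 with Dox, log2 difference 2.56, adjusted p = 0.0326), and this was lost without iP+A No Dox replicate 1 (2.37), No Dox replicate 2 (2.75) or Dox replicate 1 (2.01).

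The Kcnh family holds the EAG, ERG and ELK channels, and 5 of its 8 members were called in at least 1 line, where 25% of all genes were. Kcnh3 (chr15:99055292-99073248, plus strand, mm9), an ELK channel of forebrain neurons, had the same pattern of calls as Kcnc4, all 4 lines with Atoh1 and no other. It rose from 58.6 and 53.9 normalized counts without Dox to 2225 and 1748 with Dox in iGPA (log2 difference 5.11 ± 0.50 (SE), adjusted p = 2.16e-07) and from 42.1 and 68.6 normalized counts without Dox to 1810.2 and 1741 with Dox in iG+A (log2 difference 5.02 ± 0.50 (SE), adjusted p = 4.42e-07). With Atoh1 alone it reached 846 and 699 (3.68) and in iP+A 649 and 413 (2.74). The Dox libraries of iAtoh1 and iP+A lay below those of iG+A and iGPA and far above those of iGfi1, iPou4f3 and iG+P, which held 64.5 and 96, 52.8 and 18 and 28.2 and 61.7. Kcnh1, the founding EAG channel, rose in iG+A (from 54.5 and 51.5 normalized counts without Dox to 193 and 163 with Dox, log2 difference 1.72 ± 0.24 (SE), adjusted p = 2.06e-05) and missed the size limit in iGPA (1.27, adjusted p = 0.000317) and iAtoh1 (1.15, adjusted p = 0.00235). Its relative Kcnh5 fell in iGPA (28.8 and 37.3 without Dox and 7.17 and 14.1 with Dox, -1.60), a call lost without iGPA No Dox replicate 2 (-1.42) or Dox replicate 1 (-1.16). The ERG channel Kcnh7 was called in opposite directions, up in iG+P (31.8 and 35.6 without Dox and 189 and 104 with Dox, 2.02) and down in iGPA (169 and 94.2 without Dox and 33.8 and 29.7 with Dox, -1.96). Its untreated libraries ranged over 28.5 to 217 normalized counts (median 95.2). Neither call held up: the rise was lost without iG+P No Dox replicate 1 (1.94), No Dox replicate 2 (2.10) or Dox replicate 1 (1.60) and the fall without iGPA No Dox replicate 1 (-1.54), Dox replicate 1 (-2.05) or Dox replicate 2 (-1.87). Kcnh4, an ELK channel, was called in iP+A (9.16 and 9.20 without Dox and 34.4 and 25 with Dox, 1.58), which was lost without iP+A No Dox replicate 1 (1.57), No Dox replicate 2 (1.58) or Dox replicate 1 (1.35).

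Among the Kcna genes, the mammalian Shaker channels, Kcna4 (chr2:107130796-107138659, plus strand, mm9) was called most often. It encodes a rapidly inactivating subunit and had 0 to 13.4 normalized counts (median 1.98) in untreated libraries. In iG+P it went from 0 and 2.01 normalized counts without Dox to 72.7 and 91 with Dox (log2 difference 5.57 ± 0.85 (SE), adjusted p = 5.49e-05), in iGPA from 1.75 and 1.97 normalized counts without Dox to 51.2 and 72.7 with Dox (log2 difference 4.44 ± 0.85 (SE), adjusted p = 0.000338), and in iP+A from 0 and 0.919 normalized counts without Dox to 27.2 and 33.6 with Dox (log2 difference 4.49 ± 0.85 (SE), adjusted p = 0.000768). With 5 added before the logarithm in place of 1, the difference in iP+A was 2.70. These 3 lines carry Pou4f3 with another factor. In iPou4f3 the Dox libraries held 49 and 61.6 and lay above 4.51 and 13.4 without Dox, but the difference was not called (2.65, adjusted p = 0.0862). The call in iG+A (0 and 10.1 without Dox and 34 and 25.6 with Dox, 3.20) turned on the untreated pair: it was lost without iG+A No Dox replicate 1 (1.46), while the difference was 4.93 without No Dox replicate 2, and 1.99 with 5 added. Kcna2, an axonal subunit that flanks the nodes of Ranvier, was at or near 0 in the untreated libraries (0 to 1.75 normalized counts (median 0)) and was called in iP+A alone, with 19.9 and 35.5 (log2 difference 4.28). It reached 10 counts in these 2 libraries only and entered the fit through them, so that the difference is given as a description. With so few untreated counts, the size of this difference depends on the 1 added before the logarithm, and it was 2.53 with 5 added. The other 12 Dox libraries held no more than the 1.96 of iG+P Dox replicate 1. Kcna7 rose in iG+P (from 17.4 and 18.1 normalized counts without Dox to 94.3 and 52 with Dox, log2 difference 1.92 ± 0.42 (SE), adjusted p = 0.00165) and iGPA (from 10.5 and 9.82 normalized counts without Dox to 54.2 and 52.5 with Dox, log2 difference 2.28 ± 0.42 (SE), adjusted p = 0.000245). Kcna3, the channel of T cells and microglia, was called as a fall in iGPA (6.99 and 11.8 without Dox and 1.02 and 4.03 with Dox, -1.66, adjusted p = 0.0458), and this was lost without any 1 of 17 libraries, with -1.01 without iGPA Dox replicate 1 as the value nearest 0.

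Delayed rectifiers of the Kcnb family are joined by silent subunits. Kcnb2 rose in iAtoh1 (from 142 and 64.4 normalized counts without Dox to 595 and 536 with Dox, log2 difference 2.55 ± 0.38 (SE), adjusted p = 0.000103), iP+A (2.43) and iGPA (1.80, but 1.43 and not called after quantile normalization), and in iG+A the difference of 1.37 missed the size limit (adjusted p = 0.00759). Among the silent subunits, Kcng1 (chr2:168085617-168107236, minus strand, mm9) had 2.32 to 12.2 normalized counts (median 7.00) without Dox and rose in every line but iPou4f3. In iGPA it went from 3.50 and 6.88 normalized counts without Dox to 564 and 393 with Dox (log2 difference 6.31 ± 0.56 (SE), adjusted p = 6.38e-08), in iG+A from 2.32 and 10.1 normalized counts without Dox to 281 and 548 with Dox (log2 difference 6.02 ± 0.56 (SE), adjusted p = 1.96e-07), and in iP+A from 7.13 and 6.43 normalized counts without Dox to 373 and 254 with Dox (log2 difference 5.31 ± 0.56 (SE), adjusted p = 1.46e-06). The Dox libraries of iG+A overlapped those of iGPA and of iP+A, which did not overlap each other, and all 6 lay above those of the other lines. In iAtoh1 (175 and 71.9, 3.24) and iG+P (109 and 50.9, 2.85) the levels were lower. The rise in iGfi1 (35.8 and 39.2, 2.01) was lost without iGfi1 No Dox replicate 2 (1.56), Dox replicate 1 (2.07) or Dox replicate 2 (1.95), and iPou4f3 was not called (17.8 and 34.2, 1.85, adjusted p = 0.0681).

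Kcnv1 (chr15:44937830-44946480, minus strand, mm9), a silent subunit of brain, was at 0 to 5.14 normalized counts in the untreated libraries and rose in the 4 lines with Pou4f3 and in iGfi1. It reached 10 counts in Dox libraries of these lines only and entered the fit through them. Its differences and p-values, here and below, are therefore given as a description. In iG+P it went from 5.14 and 0 normalized counts without Dox to 304 and 632 with Dox (log2 difference 7.47 ± 0.74 (SE), adjusted p = 4.24e-07). In iGPA it is listed at 0 in both untreated libraries and had 73.7 and 124 with Dox (adjusted p = 1.05e-06), and in iP+A it is likewise listed at 0 without Dox and had 13.7 and 13.9 with it (adjusted p = 0.000812). In iPou4f3 it went from 0.946 and 0.935 normalized counts without Dox to 41.9 and 60.0 with Dox (log2 difference 4.72 ± 0.74 (SE), adjusted p = 0.000699). The Dox levels thus fell in the order iG+P, iGPA, iPou4f3 and iP+A, with no overlap between neighbours. With Atoh1 alone, Dox left Kcnv1 listed at 0 in both libraries, and in iG+A it held 1.78 and 0. In iGfi1 the rise from 0 and 1.68 to 14 and 7.77 (2.81) was lost without iGfi1 No Dox replicate 1 (2.10) or Dox replicate 1 (2.42) or with 5 added before the logarithm (1.43). Kcns3 rose in iP+A (from 123 and 120.0 normalized counts without Dox to 428 and 350.4 with Dox, log2 difference 1.66 ± 0.28 (SE), adjusted p = 0.000216) and iGPA (from 115 and 106 normalized counts without Dox to 335 and 402 with Dox, log2 difference 1.73 ± 0.28 (SE), adjusted p = 5.43e-05), the latter coming to 1.35 and losing its call after quantile normalization. Kcnf1 was called in iP+A (2.17, lost without iP+A No Dox replicate 2 (1.95) or Dox replicate 1 (1.75)) and in iGPA (1.86, lost without iGPA No Dox replicate 1 (1.64) or Dox replicate 1 (1.70)). In iG+P it was 17.4 and 14 without Dox and 106 and 26 with Dox, and the call (1.69) was lost without iG+P No Dox replicate 1 (1.84), No Dox replicate 2 (1.55) or Dox replicate 1 (0.70). Kcnv2, the silent subunit of photoreceptors, was called as a fall in iG+P (12.3 and 11 without Dox and 3.92 and 2.17 with Dox, -1.68), and this was lost without iG+P No Dox replicate 1 (-1.61), No Dox replicate 2 (-1.75), Dox replicate 1 (-2.00) or Dox replicate 2 (-1.36).

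**Figure D3:**
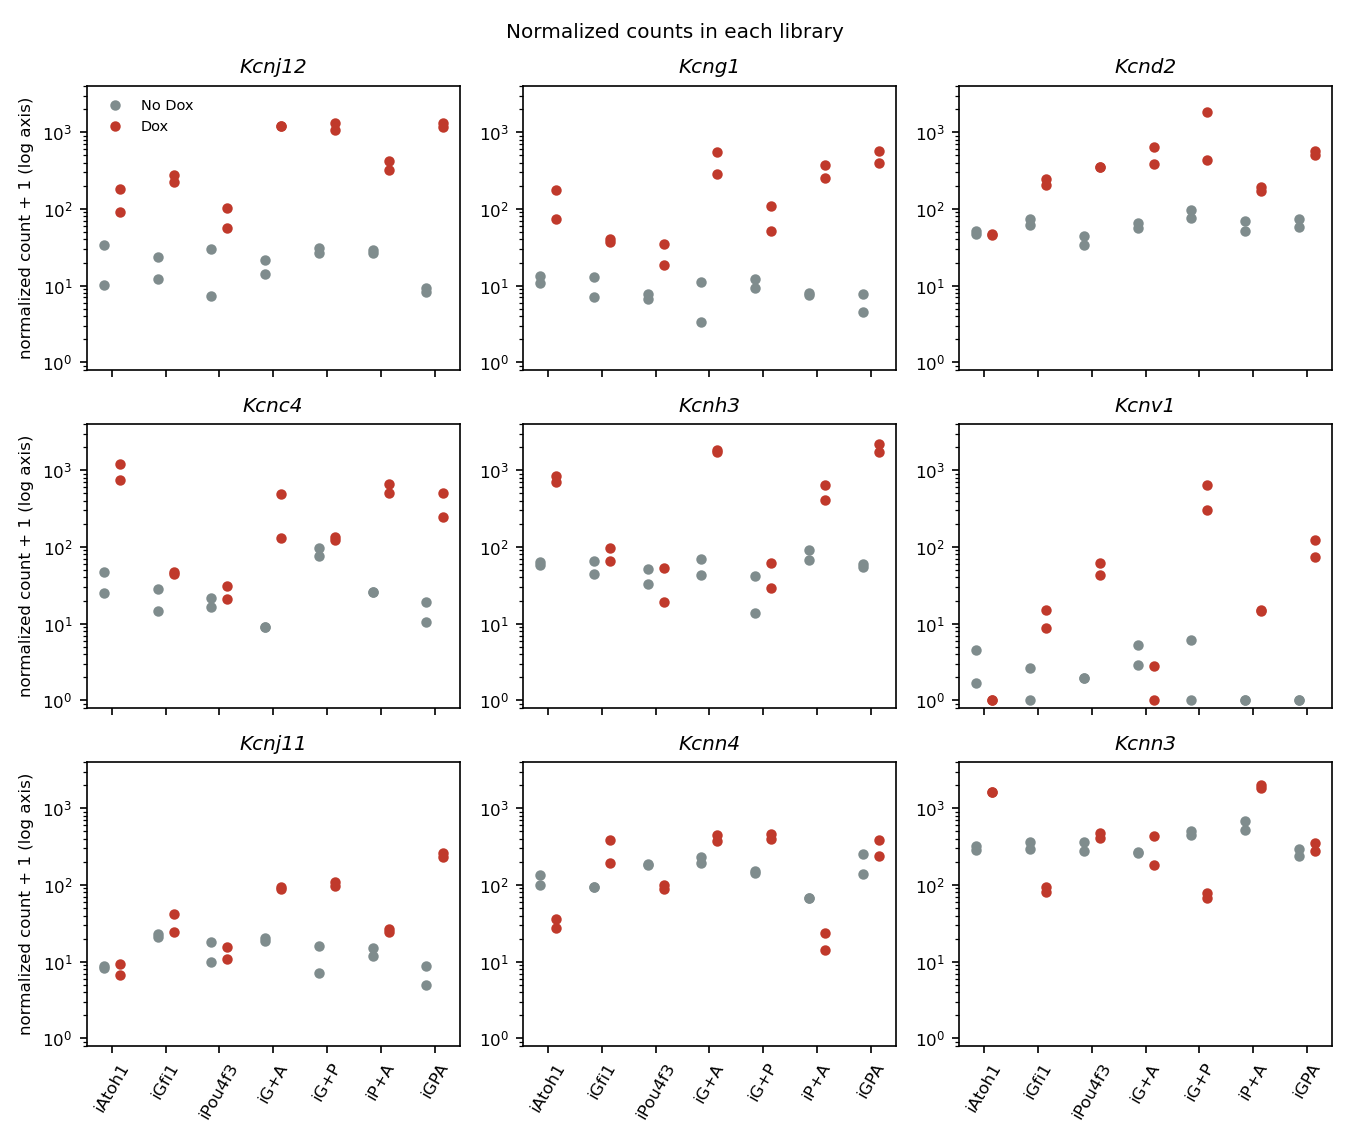
Normalized count plus 1 (log axis) of 9 members in each library of the 7 lines, No Dox in grey and Dox in red. Kcnc4 and Kcnh3 are raised in iAtoh1, iG+A, iP+A and iGPA, Kcnv1 is raised most in iG+P, Kcnj11 is raised in iG+A, iG+P and iGPA, and Kcnn3 and Kcnn4 move in opposite directions in iAtoh1, iGfi1, iG+P and iP+A.

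The Kcnd channels carry the rapidly inactivating A-type current of dendrites and heart, and their calcium-binding partners are the Kcnip proteins. Kcnd2 (chr6:21165503-21679805, plus strand, mm9) had 32.7 to 95 normalized counts (median 58.9) in untreated libraries and rose in every line except iAtoh1, where it held 44.8 and 45.4 with Dox. The rise was from 95 and 75.1 normalized counts without Dox to 1831 and 439 with Dox in iG+P (log2 difference 3.39 ± 0.42 (SE), adjusted p = 4.88e-06), with the clones far apart. It went from 56.8 and 71.7 normalized counts without Dox to 498 and 571 with Dox in iGPA (3.04), from 63.8 and 54.9 normalized counts without Dox to 641 and 379 with Dox in iG+A (3.04), and from 32.7 and 43.5 normalized counts without Dox to 346 and 348 with Dox in iPou4f3 (3.17). The 8 Dox libraries of these 4 lines, from 346 to 1831, lay above those of iGfi1 (205 and 244) and iP+A (172 and 193). The smaller rises in iGfi1 (1.72) and iP+A (1.62) were lost without iGfi1 No Dox replicate 2 (1.59) and without iP+A No Dox replicate 2 (1.41) or Dox replicate 2 (1.54), respectively. Kcnd3, its relative in heart and brain, moved the other way. It fell in iGPA (from 623 and 900.0 normalized counts without Dox to 93.8 and 95.6 with Dox, log2 difference -2.97 ± 0.49 (SE), adjusted p = 6.91e-05), in iG+A (-1.72, lost without iG+A No Dox replicate 1 (-1.35) or Dox replicate 2 (-1.10)) and in iG+P (-1.77, lost without iG+P No Dox replicate 2 (-1.62)). In iGPA the opposite calls of Kcnd2 and Kcnd3 both held whichever library was left out. Of the 4 Kcnip genes, Kcnip1 rose in iGPA (from 73 and 95.1 normalized counts without Dox to 360.3 and 288 with Dox, log2 difference 1.94 ± 0.28 (SE), adjusted p = 1.89e-05) and Kcnip2, the partner of Kcnd channels in heart, in iAtoh1 (from 72.4 and 49.5 normalized counts without Dox to 243 and 229 with Dox, log2 difference 1.96 ± 0.31 (SE), adjusted p = 0.000162). Kcnip3, which also acts as a transcriptional repressor, rose in iGPA (from 531 and 443 normalized counts without Dox to 1669 and 1626 with Dox, log2 difference 1.76 ± 0.14 (SE), adjusted p = 1.76e-08) and came just under the size limit in iG+A (1.49). Its Dox libraries lay above the No Dox libraries of the line in all 7 lines.

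The Kcnq channels include subunits of the M-current such as Kcnq3, which damps repetitive firing, and Kcnq1, which with Kcne1 secretes potassium into the endolymph. Kcnq3 was called in iP+A (208 and 145 without Dox and 564 and 448 with Dox, 1.53) and lost without iP+A No Dox replicate 2 (1.27) or Dox replicate 1 (1.36). Kcnq1 rose in iG+A (from 98.6 and 65.7 normalized counts without Dox to 302 and 293 with Dox, log2 difference 1.87 ± 0.31 (SE), adjusted p = 9.93e-05) and iGPA (from 61.5 and 40.3 normalized counts without Dox to 196 and 162 with Dox, log2 difference 1.82 ± 0.31 (SE), adjusted p = 9.56e-05). The rise in iGPA came to 1.35 after quantile normalization, under the size limit. Its partner Kcne1 was called in iP+A only, as a fall (20.5 and 9.26 without Dox and 0 and 2.77 with Dox, -2.93), and this was lost without iP+A No Dox replicate 1 (-2.40) or Dox replicate 1 (-1.98). With 5 added before the logarithm in place of 1, the difference was -1.61. Other Kcne genes, small subunits with 1 transmembrane segment that modulate Kcnq and other channels, gave mixed results. Kcne1l (chrX:138739295-138740837, minus strand, mm9) rose in iG+A (from 1.16 and 7.86 normalized counts without Dox to 65.8 and 61 with Dox, log2 difference 3.88 ± 0.48 (SE), adjusted p = 5.18e-06), iAtoh1 (from 4.87 and 4.90 normalized counts without Dox to 54.6 and 72.1 with Dox, log2 difference 3.44 ± 0.48 (SE), adjusted p = 5.86e-05) and iGPA (from 6.98 and 7.85 normalized counts without Dox to 61.1 and 68.4 with Dox, log2 difference 2.96 ± 0.48 (SE), adjusted p = 6.68e-05). In iP+A its Dox libraries (28.9 and 37.3) lay above 12.3 and 11.9 without reaching the size limit (1.37). Kcne3, a partner of Kcnq1 in epithelia, fell in iG+P (from 17.9 and 30.0 normalized counts without Dox to 3.03 and 1.12 with Dox, log2 difference -3.05 ± 0.64 (SE), adjusted p = 0.00103, and -2.01 with 5 added before the logarithm), and Kcne2 was called there as a rise (10.2 and 10.0 without Dox and 26.5 and 46.6 with Dox, 1.70), which was lost without iG+P No Dox replicate 1 (1.71), No Dox replicate 2 (1.69), Dox replicate 1 (2.10) or Dox replicate 2 (1.31).

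Inward rectifiers other than Kcnj12 were called in the lines that combine factors, with 1 exception. Kcnj11 (chr7:53352533-53355607, minus strand, mm9) is the pore of ATP-sensitive channels, which couple metabolism to excitability, and works only with a sulfonylurea receptor, Abcc8 or Abcc9. It rose from 7.86 and 3.93 normalized counts without Dox to 231 and 262 with Dox in iGPA (log2 difference 5.22 ± 0.41 (SE), adjusted p = 1.31e-08), from 6.15 and 15.1 normalized counts without Dox to 95.4 and 109 with Dox in iG+P (log2 difference 3.27 ± 0.41 (SE), adjusted p = 6.3e-06), and from 17.4 and 19.1 normalized counts without Dox to 87.1 and 92.7 with Dox in iG+A (log2 difference 2.24 ± 0.41 (SE), adjusted p = 0.00029). No other line passed 41.2 normalized counts in any library. Both receptor genes rose in the same 3 lines and in no other. Abcc8 reached 323 and 321 in iGPA (4.37), 55.5 and 60.8 in iG+P (2.63) and 62.3 and 71 in iG+A (2.36). Abcc9 was highest in iG+A, at 266 and 204 (3.99), with 2.64 in iGPA and 2.37 in iG+P. The other pore of these channels, Kcnj8, was called in iG+A (6.96 and 3.36 without Dox and 19.1 and 39.1 with Dox, 2.27), lost without iG+A No Dox replicate 2 (1.83) or Dox replicate 2 (1.77), and in iGPA (1.75 and 1.97 without Dox and 10.2 and 11.1 with Dox, 2.03), lost without iGPA No Dox replicate 1 (1.98), No Dox replicate 2 (2.08), Dox replicate 1 (2.08) or Dox replicate 2 (1.98). Kcnj8 entered the fit only through the Dox libraries of these lines, so that its differences are given as a description.

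The G-protein-gated rectifiers slow firing when inhibitory receptors are active. Of these, Kcnj9 rose in iGPA (from 1.28 and 1.92 normalized counts without Dox to 40.8 and 27.5 with Dox, log2 difference 3.74 ± 0.71 (SE), adjusted p = 0.000292), in iG+A (from 1.13 and 0 normalized counts without Dox to 26.2 and 13.6 with Dox, log2 difference 3.77 ± 0.71 (SE), adjusted p = 0.000364, and 2.12 with 5 added before the logarithm) and in iAtoh1 (0.476 and 0.795 without Dox and 17.8 and 7.18 with Dox, 2.93), where the call was lost without iAtoh1 Dox replicate 1 (2.33) and the difference was 1.56 with 5 added. Kcnj5, the atrial subunit, rose in iGPA (from 148 and 146 normalized counts without Dox to 772 and 478 with Dox, log2 difference 2.04 ± 0.28 (SE), adjusted p = 9.4e-06) and in iG+P (1.68), where it was lost without iG+P Dox replicate 1 (1.34). Kcnj3, with which other members of the group assemble, was called in iG+A (2.46, lost without iG+A No Dox replicate 1 (1.72)) and in iGPA (2.12, lost without iGPA No Dox replicate 2 (1.63) or Dox replicate 1 (1.58)). In iP+A its call (1.82) was lost without iP+A No Dox replicate 1 (1.68), No Dox replicate 2 (1.95), Dox replicate 1 (1.69) or Dox replicate 2 (1.94), and 31.1% of its exon bases overlap a transcript on the opposite strand, whose reads cannot be told apart from its own, since Kallisto run as the authors did takes no account of strand. Relatives of Kcnj12 with strong rectification were also called. Kcnj2 rose in iGPA (30.6 and 42.3 without Dox and 98.3 and 167 with Dox, 1.80), lost without iGPA Dox replicate 2 (1.43) or after quantile normalization (1.39), in iG+A (1.56), lost without iG+A No Dox replicate 2 (1.43) or Dox replicate 1 (0.96), after quantile normalization (1.32) or with 5 added before the logarithm (1.49), and in iG+P (1.56), lost without iG+P No Dox replicate 1 (1.41), after quantile normalization (1.37) or with 5 added (1.44). Kcnj4 was called in iGPA (55.9 and 54 without Dox and 186 and 146 with Dox, 1.57), lost without iGPA Dox replicate 1 (1.40) or after quantile normalization (1.13).

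Two-pore channels carry the background leak. Kcnk13, which forms a halothane-inhibited leak, rose in iAtoh1 (from 17.6 and 19.6 normalized counts without Dox to 201 and 109.7 with Dox, log2 difference 2.94 ± 0.54 (SE), adjusted p = 0.00075) and was called in iGPA (1.57, lost without iGPA No Dox replicate 1 (1.74), No Dox replicate 2 (1.41) or Dox replicate 1 (1.11)). Its silent relative Kcnk12 was called in iGPA (2.62 and 12.8 without Dox and 62.5 and 36.3 with Dox, 2.79), lost without iGPA No Dox replicate 1 (1.82) or Dox replicate 1 (2.40). The acid-sensitive leak channels differed by line. Kcnk9 rose in iGPA (from 6.99 and 11.8 normalized counts without Dox to 51.2 and 101 with Dox, log2 difference 2.85 ± 0.48 (SE), adjusted p = 8.96e-05) and Kcnk3 in iP+A (from 101 and 46.9 normalized counts without Dox to 446 and 275 with Dox, log2 difference 2.33 ± 0.44 (SE), adjusted p = 0.0008). Kcnk10, a mechano- and lipid-gated leak channel, rose in iG+A (from 3.90 and 2.78 normalized counts without Dox to 42.3 and 18.2 with Dox, log2 difference 2.74 ± 0.54 (SE), adjusted p = 0.0006), and Kcnk6 in iG+A (from 95.4 and 113 normalized counts without Dox to 355 and 347 with Dox, log2 difference 1.75 ± 0.27 (SE), adjusted p = 5.59e-05) and in iGPA (1.59), the latter being lost without iGPA No Dox replicate 2 (1.48) or Dox replicate 2 (1.33). Kcnk16, a channel of pancreatic islets, was called as a fall in iGPA, where it held 10.5 and 2.95 without Dox and is listed at 0 in both Dox libraries (adjusted p = 0.0131). That call was lost without iGPA No Dox replicate 1, Dox replicate 1 or Dox replicate 2.

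The calcium-activated channels Kcnn3 and Kcnn4 were called in the same 4 lines with opposite signs. Kcnn3 (chr3:89324086-89471683, plus strand, mm9) is a small-conductance channel that follows calcium entry with an afterhyperpolarization, and Kcnn4 (chr7:25155282-25170228, plus strand, mm9) is the intermediate-conductance channel of blood cells and epithelia. In iAtoh1, Kcnn3 rose from 283 and 319 normalized counts without Dox to 1609 and 1633 with Dox (log2 difference 2.43 ± 0.28 (SE), adjusted p = 6.66e-06) and Kcnn4 fell from 100.3 and 135 normalized counts without Dox to 35.1 and 26.6 with Dox (log2 difference -1.89 ± 0.34 (SE), adjusted p = 0.000547). In iP+A, Kcnn3 rose from 687 and 520.2 normalized counts without Dox to 2011 and 1823 with Dox (log2 difference 1.68 ± 0.28 (SE), adjusted p = 0.000211) and Kcnn4 fell from 66.6 and 66.1 normalized counts without Dox to 13.2 and 22.7 with Dox (log2 difference -1.88 ± 0.34 (SE), adjusted p = 0.000456). In both lines with Gfi1 and no Atoh1 the signs were reversed. In iG+P, Kcnn3 fell from 512 and 442 normalized counts without Dox to 77.9 and 67 with Dox (log2 difference -2.70 ± 0.28 (SE), adjusted p = 6.32e-07) and Kcnn4 rose from 152 and 141 normalized counts without Dox to 399 and 459 with Dox (log2 difference 1.54 ± 0.34 (SE), adjusted p = 0.00149). In iGfi1, Kcnn3 fell from 366 and 291 normalized counts without Dox to 79.7 and 92.2 with Dox (log2 difference -1.92 ± 0.28 (SE), adjusted p = 9.14e-05) and Kcnn4 rose from 92.5 and 92.7 normalized counts without Dox to 389 and 192 with Dox (log2 difference 1.55 ± 0.34 (SE), adjusted p = 0.00249). The falls of both genes held whichever library was left out. The rises of Kcnn4 were lost without iGfi1 Dox replicate 1 (1.04) and without iG+P No Dox replicate 2 (1.49) or Dox replicate 2 (1.44), and that of Kcnn3 in iP+A without iP+A No Dox replicate 2 (1.48). In iG+A and iGPA, which carry both Gfi1 and Atoh1, neither gene was called, and Kcnn3 differed by 0.10 and 0.24. The summed level of the blood markers was lower with Dox in iAtoh1 (181107 to 199978 without and 13628 to 18989.6 with Dox) and iP+A (103496 to 119327 and 12363 to 29598). It was also lower with Dox in iG+A (372813 to 485545 and 41597 to 48208) and iGPA (261982 to 436406 and 20877 to 38849), where Kcnn4 was not called and differed by 0.94 and 0.70. Where Kcnn4 rose, the sums were 176233 to 252335 and 199261 to 366807 in iGfi1, and 67467 to 137686 and 34378 to 86106 in iG+P. In iPou4f3, where it was not called, they were 375326 to 484546 and 247716 to 261795. The part of blood cells in the results of Kcnn4 was not tested. Kcnn2, the small-conductance channel at the efferent synapse of hair cells, had higher values with Dox than without in every line (156 to 248 normalized counts (median 206) without and 256 to 857 (median 446) with Dox). Only the difference in iP+A (1.59) reached the size limit, and that call was lost without iP+A Dox replicate 1 (1.24). The large-conductance pore Kcnma1, which opens with both voltage and calcium, and the sodium- and pH-activated Kcnt1, Kcnt2 and Kcnu1 were called in no line. The largest difference of Kcnma1 was a lower level in iPou4f3 (784 and 916 without Dox and 340.2 and 270.4 with Dox, -1.48, adjusted p = 0.00493), just short of the size limit.

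Auxiliary subunits of the Kcnma1 channel were called although the pore was not. Kcnmb1 (chr11:33863013-33873641, plus strand, mm9), the beta subunit that raises calcium sensitivity in smooth muscle, rose in 5 lines. It went from 13.9 and 32.5 normalized counts without Dox to 289 and 278 with Dox in iG+A (log2 difference 3.67 ± 0.40 (SE), adjusted p = 1.11e-06), from 19.2 and 21.6 normalized counts without Dox to 279 and 263 with Dox in iGPA (log2 difference 3.67 ± 0.40 (SE), adjusted p = 7.07e-07), and from 19.5 and 24.5 normalized counts without Dox to 135 and 145 with Dox in iAtoh1 (log2 difference 2.62 ± 0.40 (SE), adjusted p = 0.000131). The rises in iP+A (2.15) and iG+P (1.92) were smaller. No Dox library of iGfi1 or iPou4f3 passed 83.5, the value of iGfi1 Dox replicate 2. Markers of smooth muscle and fibroblasts fell in these same 5 lines and in iGfi1, as given above, and their part in the results of Kcnmb1 was not tested. Kcnmb2, which inactivates the channel, was called as a fall in iGPA (66.5 and 30.7 without Dox and 13.7 and 14.5 with Dox, -1.62), lost without iGPA No Dox replicate 1 (-1.07). Kcnab2, a cytoplasmic beta subunit of the Kcna channels, rose in all 4 lines that combine factors and in no line with 1 factor. It reached 768 and 626 in iGPA (log2 difference 2.86 ± 0.19 (SE), adjusted p = 1.23e-09), 448 and 367 in iP+A (2.13), 274 and 301 in iG+A (1.77) and 327 and 337 in iG+P (1.67, and 1.48 and not called after quantile normalization), from 74.8 to 111 normalized counts (median 91.7) in untreated libraries. The iGPA libraries lay above those of iP+A, and these above those of iG+P and iG+A.

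Genes known from the inner ear or from neurons were followed whatever their values. Of the inner ear genes, Kcnq1 was called with rises kept without any 1 library (that in iGPA was lost after quantile normalization), Kcnn2 with a rise and Kcne1 with a fall that were not, and Kcnma1 and Kcnj10 in no line. Kcnj10, the rectifier of supporting cells and of the stria vascularis, had 6.88 to 31.3 normalized counts (median 15) without and 6.34 to 23.2 (median 11.6) with Dox. Kcna10 did not reach 10 counts in any library (highest value 2.17), and Kcnj13 was not analysed here. Of the neuronal genes, Kcnc1 and Kcnd2 rose in 5 and 6 lines, Kcna2 and Kcnq3 were called in iP+A only, and Kcnip1 was called in iGPA only. The Dox libraries of Kcnip1 lay above the No Dox libraries in every line. Kcna1 was called in no line (0.816 to 16.7 normalized counts (median 7.45) without and 0 to 13.4 (median 2.47) with Dox). Kcna2, Kcnc2, Kcnh4, Kcnk3, Kcnn2 and Kcnq3 were called as rises in iP+A and no other line, and of these Kcnk3 kept the call whichever library was left out. Kcna2 did so too, but it entered the fit only through the Dox libraries of this line, so that this is no test of its call. All 8 neuron markers rose in the same line, and their part in these calls was not tested. Kcnip1, Kcnip3, Kcnj4, Kcnk12 and Kcnk9 were called as rises in iGPA and no other line.

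Further calls within a line that depended on 1 library were also lost under another scale. After quantile normalization these were Kcnq3 in iP+A (1.48), Kcnh7 (1.85), Kcnn4 (1.40), Kcnv2 (-1.58) and Kcne2 (1.58) in iG+P, and Kcnk13 (1.21) and Kcnk6 (1.16) in iGPA. With 5 added before the logarithm they were Kcnv2 (-1.06) and Kcne2 (1.41) in iG+P, Kcnh4 in iP+A (1.28), and Kcna3 (-0.94), Kcnh5 (-1.31), Kcnj8 (1.19), Kcnk13 (1.43), Kcnk16 (-1.15) and Kcnmb2 (-1.41) in iGPA. Kcnj8 and Kcnv1 reached 10 counts in Dox libraries only, and Kcna3 and Kcnk16 in No Dox libraries only. Their calls, included in the counts, are therefore given as a description.

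To compare the factors over lines, the mean Dox effect of the 4 lines with a factor in the cassette was set against the mean of the 3 lines without it. Each other factor is in 2 of these 4 lines and in 2 of these 3, so that the sides are not balanced. For Atoh1, 13 members were higher with the factor (15.3%, against 2.99% of all genes) and 1 was lower (1.18%, against 1.59%). For Gfi1, 6 were higher (7.06%, against 3.88%) and 3 lower (3.53%, against 2.96%), and for Pou4f3 2 were higher (2.35%, against 1.81%) and 1 lower (1.18%, against 0.529%). The effect on Kcnc4 was larger with Atoh1 by 3.95 ± 0.39 (SE; adjusted p = 7.5e-07) on the log2 scale and that on Kcnh3 by 3.79 ± 0.38 (adjusted p = 9.51e-07). The same held for Kcnj9 (3.28, and 2.02 with 5 added before the logarithm), Kcne1l (2.99), Kcng1 (2.99), Kcnn3 (2.49), Kcnmb1 (2.31), Kcnb2 (2.12) and Kcnc1 (2.07). The differences of Kcnk12 (1.89), Kcnv2 (1.73), Kcns3 (1.57) and Kcnk13 (1.55) were called too, but each was lost without at least 1 library, at 1.49 without iG+P Dox replicate 2, 1.46 without iPou4f3 Dox replicate 2, 1.42 without iPou4f3 No Dox replicate 2 and 1.34 without iPou4f3 Dox replicate 2 by the value nearest 0. Kcnv1 was lower with Atoh1 (-3.05), a value that rests in part on libraries listed at 0. In a comparison added after seeing the data, the line with the factor alone was left out, so that each other factor was in 2 of 3 lines on either side. Kcnv1 then differed by -1.91 (adjusted p = 0.0227). With Atoh1, 15 members were higher (17.6%, against 3.64% of all genes) and 1 lower (1.18%, against 1.49%), and the calls of Kcnv2 (1.40) and Kcnk13 (1.09) were lost.

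With Gfi1, the effect was larger for Kcnn4 (2.76 ± 0.26, adjusted p = 2.24e-07), Kcnj12 (2.69 ± 0.43, adjusted p = 8.84e-05) and Kcnj11 (2.57 ± 0.31, adjusted p = 4.77e-06) and also for Kcne1 (2.10) and Kcna7 (1.67), and lower for Kcnn3 (-2.60 ± 0.21, adjusted p = 4.51e-08). The call of Kcne1, which had 0 to 20.5 normalized counts, was lost with 5 added before the logarithm (1.23), and that of Kcna7 with 5 added (1.45), after quantile normalization (1.41) and without iPou4f3 No Dox replicate 2 (1.41). Kcnn3 was called in opposite directions for Atoh1 and Gfi1, in contrasts that share libraries. The calls of Kcnv1 (1.53), Kcnd3 (-1.61) and Kcna2 (-1.51) were lost without any 1 of 19, 6 and 12 libraries, with 1.21 without iG+P No Dox replicate 2, -1.35 without iP+A No Dox replicate 2 and -1.31 without iG+P Dox replicate 2 nearest 0. Kcnv1 and Kcna2 were also not called with the clone as a block (adjusted p = 0.0612 and 0.057). In the matched lines, 18 members had a larger effect with Gfi1 (21.2%, against 4.84% of all genes) and 2 a lower one (2.35%, against 3.07%), that of Kcna2 (-1.20) not being called. Among those called there and not over all lines were Kcna4 (1.90), Kcnk6 (1.64), Kcnh3 (1.64), Kcnc1 (1.63), Kcnd2 (1.59) and Kcnq1 (1.57). With Pou4f3 the effect over all lines was larger for Kcnv1 (5.62 ± 0.57, adjusted p = 2.25e-06), a value that rests in part on libraries listed at 0 and was 3.69 with 5 added, and for Kcna4 (2.59 ± 0.65, adjusted p = 0.0146). Kcnj9 was lower (-1.85), and this was lost without any 1 of 15 libraries, with -1.53 without iGfi1 No Dox replicate 2 nearest 0. In the matched lines 5 members were higher with Pou4f3 (5.88%, against 2.25%), Kcnj11 (2.24), Kcnk3 (1.61) and Kcnab2 (1.56) being added, and none was lower (0.469% of all genes), with Kcnj9 at -0.99. With each library left out, the rises numbered 11 to 14 with Atoh1 and 5 to 9 with Gfi1. The larger effects with Gfi1 numbered 3 with 5 added before the logarithm, the lower ones 6 after quantile normalization. The rises with Pou4f3 numbered 4 without iAtoh1 Dox replicate 1 or iG+P Dox replicate 2. The falls with Gfi1 numbered 1 without iPou4f3 No Dox replicate 2 or iP+A No Dox replicate 2, the fall with Pou4f3 was absent without any 1 of 14 libraries, and the falls with Atoh1 numbered 2 without iPou4f3 No Dox replicate 1, iG+A Dox replicate 1 or iP+A Dox replicate 2.

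**Figure D4:**
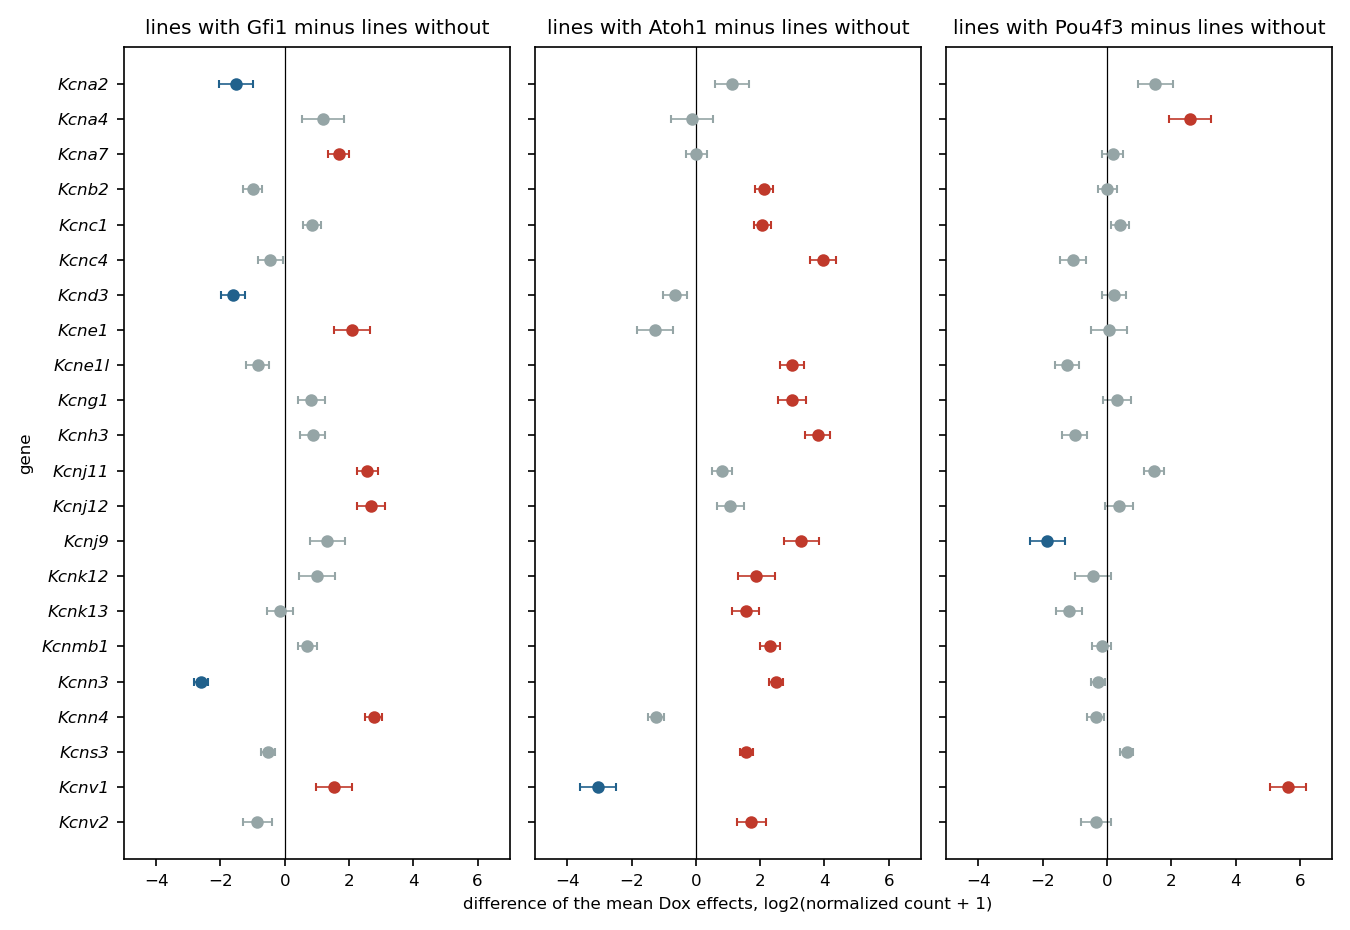
Difference between the mean Dox effects of lines with and without Gfi1, Atoh1 or Pou4f3 in the cassette (points, log2 scale) with its standard error (bars), for the 22 members called for at least 1 factor. Red points are called higher, blue points called lower and grey points not called; Kcnn3 is blue for Gfi1 and red for Atoh1.

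Set directly against Atoh1 alone, the addition of Gfi1 and Pou4f3 in iGPA gave a larger effect for 18 members (21.2%, against 6.05% of all genes) and a lower one for 2 (2.35%, against 2.99%). The larger effects included those of Kcnj11 (5.35 ± 0.58, adjusted p = 4.44e-06), Kcnj12 (4.36 ± 0.80, adjusted p = 0.000709), Kcnk9 (3.78), Kcnd2 (3.14), Kcnab2 (2.76), Kcnn4 (2.59), Kcnk6 (2.36), Kcnj2 (2.33), Kcnc1 (2.03) and Kcnv1, which Dox left at 0 in iAtoh1. For Kcna4 (4.07), Kcng1 (3.06), Kcnab3 (2.18), Kcna7 (2.13) and Kcnh8 (1.89) the call was lost without at least 1 library, the values nearest 0 being 3.22 without iAtoh1 No Dox replicate 1, 2.43 without iAtoh1 Dox replicate 2, 1.97 without iAtoh1 No Dox replicate 1, 2.01 without iAtoh1 No Dox replicate 1 and 1.61 without iAtoh1 Dox replicate 2. Kcnn3 (-2.19) and Kcnip2 (-2.28) had a lower effect in iGPA than in iAtoh1. Both were among the rises with Atoh1 alone that iGPA lacked. Among all genes, 66.9% of the calls were larger effects, and 56.3% after quantile normalization of the libraries, which moved the median of all genes from 0.0020 to -0.0557. The number of lower effects was 4 after that normalization, and also without iAtoh1 No Dox replicate 2 or iAtoh1 Dox replicate 1.

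Against iP+A, which differs from iGPA by Gfi1, 15 members had a larger effect in iGPA (17.6%, against 4.76%) and 6 a lower one (7.06%, against 2.84%). The larger effects included those of Kcnj11 (4.33 ± 0.58, adjusted p = 5.9e-05), Kcnj12 (3.44 ± 0.80, adjusted p = 0.00566), Kcnn4 (2.58), Kcnk6 (2.46), Kcna7 (2.42), Kcnq1 (2.33), Kcnc1 (2.10), Kcnj5 (1.98) and Kcnj4 (1.71, and 1.37 and not called after quantile normalization). Kcnmb2 (-2.28) had a lower effect in iGPA than in iP+A. So did Kcna2 (-4.50, and -2.62 with 5 added before the logarithm), which entered the fit only through the iP+A Dox libraries and is given as a description. The other calls given here were lost without at least 1 library. Of the larger effects these were Kcne1 (3.33, nearest 0 at 2.37 without iP+A Dox replicate 1, and 1.82 with 5 added before the logarithm), Kcnh3 (2.37, 2.04 without iP+A Dox replicate 2), Kcng3 (2.07, 1.47 without iP+A Dox replicate 2) and Kcnk5 (1.57, 0.97 without iP+A No Dox replicate 2). Of the lower effects they were Kcnh7 (-3.13, -2.01 without iP+A Dox replicate 1), Kcnd3 (-2.44, -1.66 without iP+A No Dox replicate 2), Kcnk3 (-2.10, -1.56 without iP+A No Dox replicate 2) and Kcna6 (-1.61, -1.06 without iP+A No Dox replicate 2). Of the exon bases of Kcna6, 39.5% overlap a transcript on the opposite strand. Among all genes, 62.7% of the calls were larger effects, and 51.5% after quantile normalization. The lower effects numbered 2 without iP+A No Dox replicate 2 or iP+A Dox replicate 1. Of the differences between lines that depended on 1 library, those of Kcna4 between iGPA and iAtoh1 (3.42) and of Kcne1 between iGPA and iP+A (3.16) were also lost after quantile normalization, as were those of Kcns3 (1.43) and Kcnk13 (1.45) with Atoh1 and of Kcnv1 with Gfi1 (1.19). With 5 added before the logarithm, the differences of Kcnk12 (1.23), Kcnv2 (1.32) and Kcnk13 (1.36) with Atoh1, of Kcnv1 (1.27) and Kcna2 (-0.86) with Gfi1 and of Kcnj9 with Pou4f3 (-0.86) were lost.

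Genes that work with potassium channels but carry other symbols were counted in lists. Of 15 subunits, partners and anchors tested, none rose in iPou4f3, 1 rose in iAtoh1 and 1 in iGfi1 (6.67% each, against 2.89% and 2.15% of all genes). In iP+A 4 rose (26.7%, against 4.7%), in iG+P 6 (40%, against 5.16%), in iG+A 7 (46.7%, against 7.35%) and in iGPA 9 (60%, against 8.65%). A single fall was that of Lrrc55 in iGfi1. Cntn2, which clusters Kcna channels at the juxtaparanode, rose most in iGPA, from 35.5 and 23.2 normalized counts without Dox to 5998 and 7313 with Dox (log2 difference 7.80 ± 0.42 (SE), adjusted p = 1.35e-10), and also in iG+A (5.79), iG+P (3.84), iGfi1 (3.25) and iP+A (2.05). Cntnap1, of the paranodal junction, rose in the 4 lines with Atoh1 (2.54 in iAtoh1, 3.07 in iG+A, 2.71 in iP+A and 3.04 in iGPA). Lrrc38, an auxiliary subunit of the Kcnma1 channel, rose in iGPA (4.92), iP+A (3.08), iG+A (2.13) and iG+P (1.98). Amigo1, which joins delayed rectifiers, rose in iGPA (1.62), iG+A (1.51) and iP+A (1.51), Lgi1 in iG+A (5.42) and iGPA (3.54), and Cntnap2 and the anchor Dlg2 in iG+P (1.99 and 1.51) and iGPA (1.82 and 1.62). Of the 4 related cation channels opened by hyperpolarization, Hcn3 rose in iP+A (2.62), and the pacemaker Hcn4 fell in iGfi1 (-2.59) and iG+P (-2.07). Cardiac muscle markers also fell in these 2 lines, 2 of 6 in iGfi1 (summed level 5121 to 5213 without and 1238 to 2042 with Dox) and 3 of 6 in iG+P (1110.4 to 2382 and 490 to 632), and their part in the fall of Hcn4 was not tested. Of 11 potassium pumps and cotransporters, 2 rose in iG+A and in iGPA (18.2%, against 7.35% and 8.65% of all genes), 1 rose in iAtoh1, iGfi1 and iG+P (9.09%, against 2.89%, 2.15% and 5.16%) and none in iPou4f3 or iP+A.

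By mean normalized count, which grows with transcript length and so does not rank the genes by level, the 5 members with the most counts in untreated EBs were Kcnq5 (2861), Kcnk2 (2771), Kcnh6 (1802), Kcnd3 (595) and Kcnh2 (563), and all of these but Kcnd3 were called in no line. Kcnq5, an M-current subunit, had 2376 to 3815 normalized counts (median 2841) without and 1448 to 3221 (median 2189) with Dox, and its log2 differences ran from -0.75 in iAtoh1 and iGPA to 0.09 in iG+P. Kcnk2, a mechano- and lipid-gated leak channel, had 2533 to 3012 normalized counts (median 2754) without and 2029 to 3298 (median 2638) with Dox and differed by -0.47 in iAtoh1 to 0.26 in iGfi1. The ERG channels Kcnh6 and Kcnh2 were not called either, though Kcnh2 differed by 1.42 in iAtoh1 (adjusted p = 0.00783) and 1.38 in iG+A (adjusted p = 0.00481), under the size limit. The fall of Kcnd3 is given above. The other members without a call in a line were Kcna5, Kcna6, Kcnd1 and Kcnh8 among the voltage-gated subunits, Kcng2 and Kcng3 among the silent ones, Kcnj1, Kcnj6, Kcnj14 and Kcnj15 among the inward rectifiers, Kcnk1, Kcnk4, Kcnk5, Kcnk7 and Kcnk18 among the two-pore channels, Kcnn1 among the calcium-activated channels, and Kcnab1, Kcnab3, Kcnip4, Kcnmb3 and Kcnmb4 among the auxiliary subunits. With 2 clones a group, differences under about 1.5 on the log2 scale were not called by rule, and their absence from the counts does not show that the levels were equal.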

How the data were processed

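RNA of 28 libraries, 14 groups of 2 clones, was sequenced from poly(A) libraries. The authors trimmed reads with cutadapt, quantified transcripts by Kallisto (UCSC knownGene, mm9), and obtained normalized gene values through tximport and DESeq2 (versions not given in the sources used here). The deposited values are log2 of the normalized count plus 1 for 19421 genes by Entrez ID. Symbols came from RefSeq GRCm38.p6 (19314 matched, 107 did not) and gene positions from the GENCODE annotation of mm9. Normalized counts are 2 to the power of the value, minus 1. The raw counts could not be recovered: between 71.9% and 79.4% of low values (up to 20) were whole reads within 0.05, so no count test was run, and the deposited log2 values were tested instead.

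Genes that reached 10 normalized counts in 2 or more libraries entered a fit by limma 3.58.1 (R 4.3.3, trended variance) over all 28 libraries and 14 groups, with contrasts of Dox minus No Dox in each line, between lines with and without each factor, and between iGPA and iAtoh1 or iP+A. A call needs an adjusted p (Benjamini-Hochberg) under 0.05 and an absolute difference of 1.5. Alternatives were a pseudocount of 5, no filter, quantile normalization, each library left out, a block for the clone and, added after seeing the data, factor contrasts without the line of that factor alone. The labels give replicates as different clones, and within each line No Dox and Dox libraries of the same number deviated together (correlations of 0.10 to 0.25 over genes), so the numbers were taken to pair them. Libraries of different lines were not correlated in this way, so the values cannot show that equal numbers are the same clone. The scripts were tested on simulated data.

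Genes described in full were the 3 largest rises and falls in each line that were called, the inner ear and neuronal genes named above, and the members with the most untreated counts; other called members were named by family. Members and lists were chosen with earlier results of these data known. The 2 antisense transcripts whose symbols start with Kcn were left out. Depth was estimated from the step that 1 read makes in the low values. The results of some genes, included in the counts, are not reported here.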

Additional observations from a re-analysis of the deposited data

Results flagged for a closer look

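The effect of Dox on 67 pairs of a member and a contrast differed between lines by a test of the difference itself (limma, adjusted p under 0.05 and at least 1.5 on the log2 scale). The values below are differences of log2 differences, the first set of lines minus the second, and no explanation of them was tested. The contrasts share libraries and do not count as separate evidence. Of the 67, 24 were lost without at least 1 library and 43 were not, and 62 are given here. Between lines with and without Gfi1, the effect was larger for Kcnn4 (2.76), Kcnj12 (2.69), Kcnj11 (2.57), Kcne1 (2.10), Kcna7 (1.67) and Kcnv1 (1.53), and lower for Kcnn3 (-2.60), Kcnd3 (-1.61) and Kcna2 (-1.51). Between lines with and without Atoh1, the effect was larger for Kcnc4 (3.95), Kcnh3 (3.79), Kcnj9 (3.28), Kcng1 (2.99), Kcne1l (2.99), Kcnn3 (2.49), Kcnmb1 (2.31), Kcnb2 (2.12), Kcnc1 (2.07), Kcnk12 (1.89), Kcnv2 (1.73), Kcns3 (1.57) and Kcnk13 (1.55), and lower for Kcnv1 (-3.05). Between lines with and without Pou4f3, the effect was larger for Kcnv1 (5.62) and Kcna4 (2.59), and lower for Kcnj9 (-1.85). Between iGPA and iAtoh1, the effect was larger for Kcnv1 (8.06), Kcnj11 (5.35), Kcnj12 (4.36), Kcna4 (4.07), Kcnk9 (3.78), Kcnd2 (3.14), Kcng1 (3.06), Kcnab2 (2.76), Kcnn4 (2.59), Kcnk6 (2.36), Kcnj2 (2.33), Kcnab3 (2.18), Kcna7 (2.13), Kcnc1 (2.03) and Kcnh8 (1.89), and lower for Kcnip2 (-2.28) and Kcnn3 (-2.19). Between iGPA and iP+A, the effect was larger for Kcnj11 (4.33), Kcnj12 (3.44), Kcne1 (3.33), Kcnn4 (2.58), Kcnk6 (2.46), Kcna7 (2.42), Kcnh3 (2.37), Kcnq1 (2.33), Kcnc1 (2.10), Kcng3 (2.07), Kcnj5 (1.98), Kcnj4 (1.71) and Kcnk5 (1.57), and lower for Kcna2 (-4.50), Kcnh7 (-3.13), Kcnd3 (-2.44), Kcnmb2 (-2.28), Kcnk3 (-2.10) and Kcna6 (-1.61). The values of Kcnv1 rest on groups listed at 0 and are no bound on a fold. Kcnv1 entered the fit only through Dox libraries and Kcna2 only through the iP+A Dox libraries, so that the values of both are a description.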

How the results depend on the processing

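Of the 192 calls described (125 in a line and 67 between lines), none turned in direction under any setting, all were kept with no filter on low values, 190 with the replicate block, 171 with a pseudocount of 5 and 167 after quantile normalization. With a pseudocount of 5, falls in iGPA numbered 2 (6 as reported), larger effects with Gfi1 3 (6) and lower effects with Pou4f3 0 (1). After quantile normalization, rises in iG+P numbered 11 (17), falls in iPou4f3 1 (0), lower effects with Gfi1 6 (3) and lower effects in iGPA against iAtoh1 4 (2). With the replicate block, which pairs the libraries by replicate number, taken as the clone, falls numbered 2 in iAtoh1 (1), 1 in iPou4f3 (0) and 3 in iG+A (1), and Kcna2 and Kcnv1 were no longer called for Gfi1. Over lines matched for the other factors, a comparison added after seeing the data, larger effects with Gfi1 numbered 18 (6), larger effects with Pou4f3 5 (2) and lower effects with Pou4f3 0 (1). The cause of these changes was not tested. With each library left out in turn, rises numbered 2 to 5 in iGfi1 and 2 to 6 in iPou4f3, and falls 1 to 3 in iAtoh1, 1 to 4 in iGfi1, 0 to 1 in iPou4f3, 0 to 3 in iG+A, 2 to 6 in iG+P and 2 to 6 in iGPA. Over the contrasts between lines, lower effects numbered 1 to 4 with Gfi1, 1 to 2 with Atoh1, 0 to 1 with Pou4f3, 2 to 4 in iGPA against iAtoh1 and 2 to 7 in iGPA against iP+A, and larger effects 2 to 4 with Pou4f3. Leaving out a library leaves its group with 1, which is then assumed to vary like the others. Members near 0 counts are limited most by depth, since 1 read there moves the log2 value by a large step.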
